A study of Homo sapiens with 8 samples.

Results

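The genes described here are SREBF2, which encodes the transcription factor SREBP2, its regulator INSIG1, and 6 enzymes of cholesterol synthesis, HMGCS1, IDI1, FDPS, FDFT1, SQLE and MSMO1. They were chosen by name, 8 of the 24351 genes with summed transcript levels, and all 8 were among the 14905 genes that passed the filter on low values. No gene of cholesterol uptake is among them, and a list of uptake and transport genes is described beside them. RNA was sequenced from ARP1 and H929, human cell lines derived from multiple myeloma, which is a plasma cell malignancy. Each line had 1 library of CHEK1 overexpression, 1 of the control of overexpression, 1 labelled CHEK1 knockdown and 1 of the control of knockdown, 8 libraries in all. The labels give neither how CHEK1 was raised or lowered nor whether a line is 1 clone, so each group is named as labelled, and the 2 lines stand as the only replicates of a genotype.

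SREBP2 is made as a membrane protein of the endoplasmic reticulum. When sterols are scarce, the escort protein SCAP carries it to the Golgi, where proteases release the part that enters the nucleus and switches on the genes of cholesterol synthesis and uptake. INSIG1 holds SCAP back when sterols are plentiful, and its own gene is a target of SREBP2. The enzymes work in sequence, HMGCS1 on the way to mevalonate, IDI1 and FDPS to farnesyl diphosphate, FDFT1 and SQLE to the first steps unique to sterols, and MSMO1 on the way from lanosterol to cholesterol. Farnesyl diphosphate also feeds protein prenylation, and FDPS is the target of the aminobisphosphonates given for myeloma bone disease.

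The promoter windows below are shown because these genes are textbook targets of SREBP2. The letters show which exact matches to motifs of that factor and its usual partners they hold. Each runs from 250 bases before to 50 after a RefSeq transcription start on GRCh38.p14 and is read on the gene's strand. Capitals mark the sterol regulatory element TCACNCCAC and the NF-Y box CCAAT or its reverse complement, both searched on both strands. Windows were matched for 6 of the 8 genes, and FDFT1 and SQLE are named only. HMGCS1 and IDI1 have several windows, and the 1 whose start lies nearest to the main transcript is printed.
SREBF2 chr22:41832855-41833154 (+): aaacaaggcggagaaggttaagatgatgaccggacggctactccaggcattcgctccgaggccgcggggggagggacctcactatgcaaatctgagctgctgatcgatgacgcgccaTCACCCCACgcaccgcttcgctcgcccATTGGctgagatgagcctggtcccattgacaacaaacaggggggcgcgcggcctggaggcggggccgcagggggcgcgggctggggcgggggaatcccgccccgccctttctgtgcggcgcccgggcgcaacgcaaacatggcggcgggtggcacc
INSIG1 chr7:155297628-155297927 (+): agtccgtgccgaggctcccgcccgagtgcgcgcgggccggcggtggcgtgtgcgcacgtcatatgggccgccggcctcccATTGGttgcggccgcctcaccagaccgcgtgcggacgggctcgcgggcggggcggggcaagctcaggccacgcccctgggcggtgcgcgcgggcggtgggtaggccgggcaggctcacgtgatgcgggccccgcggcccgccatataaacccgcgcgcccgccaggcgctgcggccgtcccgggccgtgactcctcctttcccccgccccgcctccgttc
HMGCS1 chr5:43313363-43313662 (-): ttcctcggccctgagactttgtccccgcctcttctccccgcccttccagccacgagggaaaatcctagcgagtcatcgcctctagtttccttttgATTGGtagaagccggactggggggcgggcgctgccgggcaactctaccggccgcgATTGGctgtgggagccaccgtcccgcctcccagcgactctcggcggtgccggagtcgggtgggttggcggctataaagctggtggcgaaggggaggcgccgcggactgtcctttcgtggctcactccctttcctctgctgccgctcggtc
IDI1 chr10:1049070-1049369 (-): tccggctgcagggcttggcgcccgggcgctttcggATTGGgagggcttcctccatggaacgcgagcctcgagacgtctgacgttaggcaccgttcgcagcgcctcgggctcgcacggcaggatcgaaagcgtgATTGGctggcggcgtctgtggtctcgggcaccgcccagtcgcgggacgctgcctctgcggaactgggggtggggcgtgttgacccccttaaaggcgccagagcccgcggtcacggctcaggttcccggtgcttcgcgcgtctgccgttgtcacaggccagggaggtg
FDPS chr1:155308616-155308915 (+): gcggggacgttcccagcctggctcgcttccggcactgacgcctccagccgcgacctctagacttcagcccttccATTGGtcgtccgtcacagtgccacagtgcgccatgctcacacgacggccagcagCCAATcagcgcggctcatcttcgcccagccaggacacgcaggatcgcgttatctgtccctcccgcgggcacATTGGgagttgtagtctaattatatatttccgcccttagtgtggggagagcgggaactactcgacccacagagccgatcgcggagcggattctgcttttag
MSMO1 chr4:165327419-165327718 (+): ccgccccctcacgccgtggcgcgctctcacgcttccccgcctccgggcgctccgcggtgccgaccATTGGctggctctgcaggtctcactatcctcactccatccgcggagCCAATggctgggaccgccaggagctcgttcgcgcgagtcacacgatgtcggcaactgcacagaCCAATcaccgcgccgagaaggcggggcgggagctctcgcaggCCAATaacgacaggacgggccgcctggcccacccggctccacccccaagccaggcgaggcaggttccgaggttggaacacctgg

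TCACNCCAC was present in 1 of the 6 genes, SREBF2, with its first base 133 bases before the start, against 1.13% of all 35116 promoter windows. CCAAT was found in a window of each of the 6 genes, in 7 of their 9 windows, against 34.6% of all windows, with 4 copies for MSMO1, 3 for FDPS, 2 each for HMGCS1 and IDI1 and 1 each for INSIG1 and SREBF2 in the windows printed. The Sp1 motif GGGCGG, on either strand, was in 9 of the 9 windows, against 45.0% of all windows. Matches of different motifs overlapped in 0 pairs, and matches of the same motif in 3 pairs, 2 of them GGGCGG with itself. Only exact matches were searched, so a window without TCACNCCAC may still hold a sterol regulatory element with other letters. A match describes these letters only, and no binding was measured.

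Levels are FPKM, the fragments of a transcript divided by its length and by the size of the library, which were summed here over the transcripts of each gene. Since FPKM is per length, levels can be set side by side between genes. No read totals come with the table, so no counting interval could be attached. The FPKM of a library added up to between 631871 and 693299, and between 13084 and 14092 genes had an FPKM of 1 or more. The 8 plasma cell markers summed to 1270 to 2487 FPKM, with SLAMF7 alone under an FPKM of 1 in a library (at most 0.201 in H929), while the 4 adipose markers, looked at because the protocol text names adipose tissue, summed to at most 0.164, with FABP4 and ADIPOQ at 0. Markers of T and NK cells summed to at most 14.2, of myeloid cells to 2.89, of stroma and epithelium to 17.1 and of erythroid cells to 1.91. The library labelled knockdown in ARP1 stood apart, with 25.9% of tested genes at least 1.5-fold from its control, against 9.49% in H929, and it held the highest plasma cell marker sum. The markers did not all go that way. IRF4 and TNFRSF17 were highest in that library, at 713 and 195.5 FPKM. MZB1 was the lowest of the ARP1 libraries there, at 320 FPKM, and XBP1, at 823 FPKM, lay below both ARP1 controls.

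CHEK1, the targeted gene, had 114 FPKM with overexpression and 78.2 in the control of overexpression in ARP1, and 107 and 81.5 in H929. In the libraries labelled knockdown it had 51.6 FPKM against 61.0 in the control of knockdown in ARP1, and 84.8 against 80.7 in H929. CHEK1 was thus no lower in the H929 library labelled knockdown than in its control, and no direction of a CHEK1 change can be read from that library. In ARP1 the labelled library had 0.85 times the CHEK1 level of its control, while the 2 controls there differed 1.28-fold (FPKM plus 1). Over both lines limma did not call CHEK1 with overexpression (log2 fold change 0.47, SE 0.20, unadjusted p = 0.0556, adjusted p = 0.994). Nor was it called in the libraries labelled knockdown (-0.08, SE 0.20, limma unadjusted p = 0.698, adjusted p = 0.904). Every result below on the libraries labelled knockdown rests on the label.

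**Figure D1:**
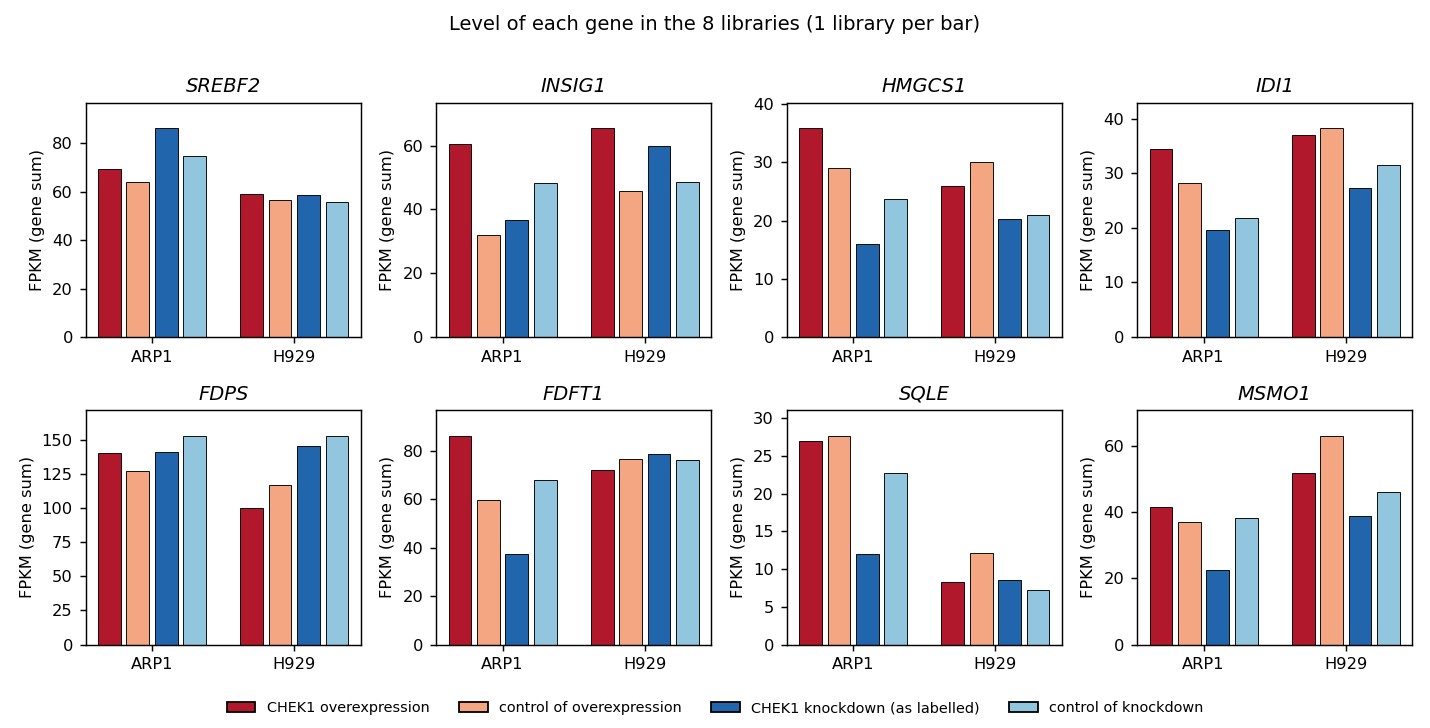
Level of each of the 8 genes in FPKM (vertical axes, each starting at 0) in the 8 libraries, with 1 bar per library, grouped by cell line and coloured by genotype. The bars of HMGCS1, FDFT1, SQLE and MSMO1 are lowest within ARP1 in the library labelled knockdown, at 16.0, 37.6, 12.02 and 22.6 FPKM, and no such dip is seen for FDPS or SREBF2.

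Gene positions are those of GENCODE release 29 on GRCh38. SREBF2 (ENSG00000198911, chr22:41833079-41907308, + strand) was the steadiest of the genes within H929. It had 69.3 FPKM with overexpression, 64.1 in its control, 86.4 in the library labelled knockdown and 74.8 in its control in ARP1, and 59.0, 56.7, 58.5 and 55.7 FPKM in the same order in H929. All 4 ARP1 libraries lay above all 4 H929 libraries, and the highest was the ARP1 library labelled knockdown. An antisense gene, SREBF2-AS1, overlaps it with at most 8.13 FPKM, and whether reads were kept by strand is not known, so the pair cannot be told apart.

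INSIG1 (ENSG00000186480, chr7:155297776-155310235, + strand), whose protein holds back SREBP2 activation, had 60.4 FPKM with overexpression, 32.0 in its control, 36.6 in the library labelled knockdown and 48.5 in its control in ARP1. H929 held 65.6 FPKM with overexpression, 45.8 in its control, 59.9 in the library labelled knockdown and 48.6 in its control. The overexpression library was the highest of the 4 in both lines, and the control of overexpression the lowest.

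HMGCS1 (ENSG00000112972, chr5:43289395-43313512, - strand), an enzyme on the way to mevalonate, had 35.9 FPKM with overexpression, 28.98 in its control, 16.0 in the library labelled knockdown and 23.8 in its control in ARP1. The H929 levels were 26.0, 30.1, 20.3 and 21.0 FPKM in that order. In each line both libraries of the overexpression arm, which is overexpression with its control, lay above both of the knockdown arm. IDI1 (ENSG00000067064, chr10:1039152-1049170, - strand), which isomerises isopentenyl diphosphate, had 34.4, 28.3, 19.6 and 21.8 FPKM in ARP1 and 37.1, 38.3, 27.3 and 31.5 FPKM in H929, and showed the same order of the arms.

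FDPS (ENSG00000160752, chr1:155308748-155320666, + strand), the farnesyl diphosphate synthase, was the most abundant of the 8 genes in every library. It had 140.5 FPKM with overexpression, 127 in its control, 141 in the library labelled knockdown and 153 in its control in ARP1, and 99.9, 117, 145.5 and 153 FPKM in H929. Both libraries of the overexpression arm lay below both of the knockdown arm in each line, in ARP1 by a margin of under 1 FPKM, the reverse of HMGCS1 and IDI1. RUSC1-AS1, an antisense gene that overlaps FDPS, reached 9.89 FPKM, and 8 annotated pseudogenes of FDPS, not analysed here, leave its level less certain than the others.

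FDFT1 (ENSG00000079459, chr8:11795573-11839309, + strand), the squalene synthase, had 86.3 FPKM with overexpression, 59.8 in its control, 37.6 in the library labelled knockdown and 68.1 in its control in ARP1. In H929 the 4 levels were 72.2, 76.5, 78.7 and 76.3 FPKM, a narrow span. FDFT1 thus held both its lowest and its highest level in ARP1.

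SQLE (ENSG00000104549, chr8:124998497-125022283, + strand), the squalene epoxidase, had 27.0 FPKM with overexpression, 27.7 in its control, 12.02 in the library labelled knockdown and 22.7 in its control in ARP1. The H929 levels were 8.31, 12.1, 8.59 and 7.27 FPKM. SQLE was the least abundant of the 8 genes in H929, and the lowest ARP1 library lay just under the highest H929 library. MSMO1 (ENSG00000052802, chr4:165327623-165343160, + strand), a methyl sterol oxidase, had 41.6, 37.1, 22.6 and 38.2 FPKM in ARP1 and 52.0, 63.2, 39.0 and 46.1 FPKM in H929, with the library labelled knockdown lowest in both lines.

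Over the 8 libraries the highest level was 3.81 times the lowest for SQLE, 2.80 for MSMO1, 2.30 for FDFT1, 2.24 for HMGCS1, 2.05 for INSIG1, 1.96 for IDI1, 1.55 for SREBF2 and 1.53 for FDPS. The enzymes thus ranged more widely than SREBF2, with FDPS as the exception.

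The first comparison the study's title names is CHEK1 overexpression against its control. INSIG1 showed the largest difference of the 8 genes, with a log2 fold change of 0.70 (SE 0.19) on the scale of FPKM plus 1, and it was higher with overexpression in both lines, 1.86-fold in ARP1 and 1.42-fold in H929. It did not pass the test over all genes (limma, unadjusted p = 0.00893, adjusted p = 0.994, n = 2 lines). None of the 8 genes passed the adjusted threshold of 0.05 in limma, INSIG1 alone had an unadjusted p under it, and the background was 0.00671% of all genes called, with 4.45% at an unadjusted p under 0.05. The other log2 fold changes ran from -0.27 (SE 0.28) for SQLE to 0.22 (SE 0.28) for FDFT1. For HMGCS1 the 95% interval was -0.43 to 0.53, so a change of that size either way could have gone undetected. Without the ARP1 overexpression library the log2 fold changes of FDFT1, HMGCS1, IDI1 and FDPS were -0.17, -0.21, -0.07 and -0.27. The median of the 8 was 0.07, against -0.01 over all genes.

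The INSIG1 difference was smaller against the other control. Against the control of knockdown of the same line, the overexpression libraries had INSIG1 log2 ratios of 0.31 in ARP1 and 0.42 in H929, compared with 0.90 and 0.51 against their own control. The main INSIG1 transcript, INSIG1-201, had 37.9 FPKM with overexpression and 18.0 in the control in ARP1, and 48.6 and 27.4 in H929 (log2 fold change 0.92, SE 0.15; limma over 36791 transcripts, adjusted p = 0.648, where 0.00272% of transcripts were called). INSIG1 is an SREBP2 target, while SREBF2 itself differed by 0.08 (SE 0.14; limma adjusted p = 0.996).

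With 1 library per group, nothing could be tested within a line, and ratios are given beside the share of all genes past 1.5-fold. In ARP1, INSIG1 alone of the 8 genes was past 1.5-fold higher with overexpression, as were 4.56% of all genes, and none was past it lower, against 6.91%. In H929, none was past 1.5-fold in either direction, against 8.93% of all genes, and 6 of the 8 log2 ratios were negative, with SQLE at -0.50.

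**Figure D2:**
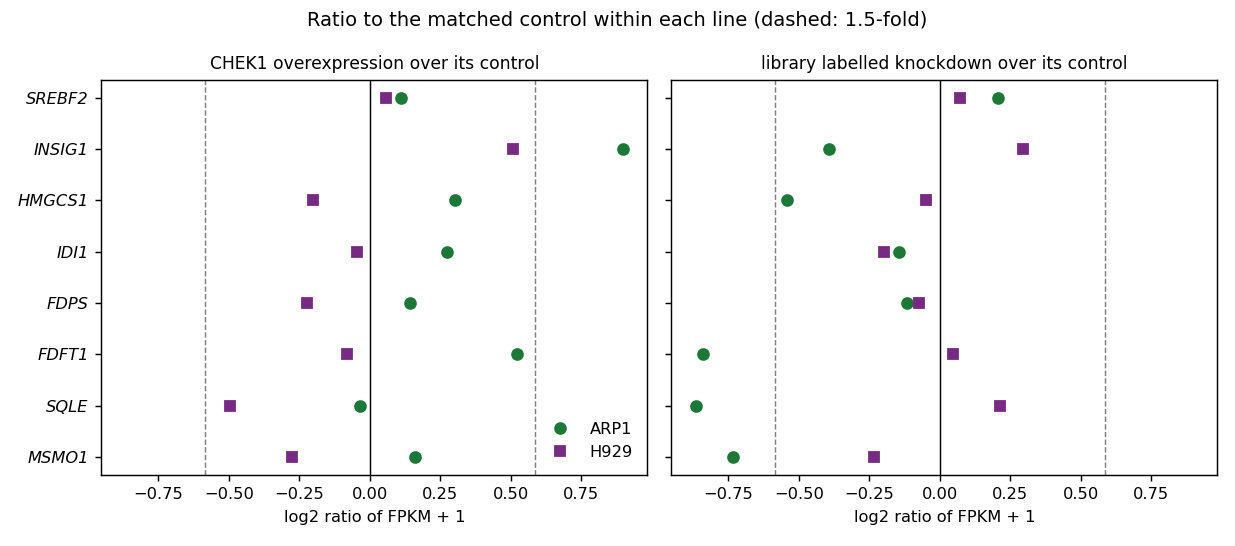
Log2 ratio of FPKM plus 1 to the matched control in the same line, for overexpression (left) and the library labelled knockdown (right), with 1 point per gene and line, no error since each is 1 library over another, and dashed lines at 1.5-fold. INSIG1 lies to the right in both lines with overexpression (0.90 and 0.51), and SQLE, FDFT1 and MSMO1 pass the left line in ARP1 alone in the right panel (-0.86, -0.84 and -0.73).

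The second comparison is the libraries labelled CHEK1 knockdown against their control. MSMO1 had the largest difference, a log2 fold change of -0.48 (SE 0.18), and was lower in the labelled library in both lines, at -0.73 in ARP1 and -0.24 in H929. It did not pass over all genes (limma, unadjusted p = 0.0291, adjusted p = 0.538, n = 2 lines). FDFT1 at -0.40, SQLE at -0.33 and HMGCS1 at -0.29 followed, each with a larger SE than MSMO1 and an adjusted p of at least 0.630 in limma. None of the 8 genes was called by limma, MSMO1 alone had an unadjusted p under 0.05, and the background was 0.0134% called and 9.14% at that unadjusted p. Without the ARP1 library labelled knockdown, FDFT1 had 0.08, SQLE 0.16 and INSIG1 0.19, so the lower values of FDFT1 and SQLE came from that library. The median over the 8 genes was -0.23, against -0.02 over all genes.

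The lines differed in the size of these ratios. In ARP1, SQLE, FDFT1 and MSMO1 were at least 1.5-fold lower in the library labelled knockdown, 3 of 8, against 13.5% of all genes, and the median log2 ratio was -0.47. In H929 none was past 1.5-fold in either direction, against 9.49% of all genes, and SQLE, FDFT1, INSIG1 and SREBF2 had ratios above 0. The ARP1 library labelled knockdown was the lowest of the 4 ARP1 libraries for HMGCS1, IDI1, FDFT1, SQLE and MSMO1, 5 of 8, against 33.8% of all genes. It was the highest for SREBF2, 1 of 8, against 32.0%. In H929 the labelled library was lowest for HMGCS1, IDI1 and MSMO1, 3 of 8, against 23.3%. This way of ordering the libraries was chosen after seeing the data.

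Against the other control, the control of overexpression, the library labelled knockdown had log2 ratios of -0.82 in ARP1 and -0.55 in H929 for HMGCS1, -0.69 and -0.68 for MSMO1, -0.51 and -0.47 for IDI1 and -1.14 and -0.45 for SQLE. These 4 genes were thus lower in both lines on that scale, while FDPS was higher, at 0.15 and 0.31. INSIG1 (0.19 and 0.38) and SREBF2 (0.43 and 0.04) were also higher, and FDFT1 had -0.66 and 0.04. CHEK1 had ratios of -0.59 and 0.06 in this setting. Against its own control the H929 library had -0.05 for HMGCS1, -0.24 for MSMO1, -0.20 for IDI1 and 0.21 for SQLE. Ratios to the other control cross the arms, so genotype and arm cannot be told apart in them. The ARP1 library labelled knockdown is also the one with the most genes past 1.5-fold, and the part of its overall shift in these results was not tested.

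The rest of the pathway was described by lists holding 23 synthesis genes, all tested, of which 17 are not among the 8. None of the 23 was called by limma in either CHEK1 comparison, and the count at an unadjusted p under 0.05 was 0 for overexpression and 1, MSMO1, for the libraries labelled knockdown. In the ARP1 library labelled knockdown 8 of the 23 were at least 1.5-fold lower than in the control, NSDHL among them, against 13.5% of all genes, and 1 was higher, GGPS1, where 25.9% of all genes were past 1.5-fold in either direction. NSDHL, a sterol dehydrogenase that acts after MSMO1, had 5.49 FPKM in the library labelled knockdown and 10.8 in its control in ARP1, and 9.95 and 11.8 in H929 (limma log2 fold change -0.54, adjusted p = 0.563). GGPS1, which makes geranylgeranyl diphosphate from the product of FDPS, had 22.1 and 14.1 FPKM in ARP1 and 17.0 and 15.2 in H929 (limma 0.38, adjusted p = 0.577).

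The median log2 ratio of the 23 genes was -0.46 in ARP1 and 0.04 in H929, against -0.03 and 0.00 over all genes. The ARP1 library labelled knockdown was the lowest of its line for 11 of the 13 genes from squalene to cholesterol, for 6 of the 10 of the mevalonate and isoprenoid steps, and for 12 of the 17 that are not among the 8, beside the 33.8% of all genes. In the overexpression comparison the 23 had a median of 0.02. Among 10 genes of SREBP control, SREBF2 and INSIG1 included, SREBF1, the gene of the fatty acid regulator SREBP1, differed most in both comparisons, by 1.47 (adjusted p = 0.501) with overexpression and 0.75 (adjusted p = 0.494) in the libraries labelled knockdown, and none of the 10 was called by limma. SREBF1 and INSIG1 with overexpression, and SREBF1 in the libraries labelled knockdown, had an unadjusted p under 0.05.

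The difference between the 2 CHEK1 effects was tested directly. INSIG1 had a log2 difference, overexpression effect minus knockdown effect, of 0.75 (SE 0.27; limma unadjusted p = 0.0296, adjusted p = 0.621), and none of the 8 was called, against 0.0134% of all genes and 7.98% at an unadjusted p under 0.05. No other gene of the 8 had an unadjusted p under 0.05 here. Between the 2 controls, control of overexpression over control of knockdown, SQLE differed by 0.47 (SE 0.28), HMGCS1 by 0.39 (SE 0.20), IDI1 by 0.32 (SE 0.15), FDPS by -0.33 (SE 0.16) and INSIG1 by -0.33 (SE 0.19). None was called by limma or had an unadjusted p under 0.05, against 0.0537% and 10.7% of all genes. For HMGCS1, IDI1, SQLE and FDPS the log2 difference between the controls was larger in size than either difference from their own control, though whether they differ was not tested.

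HMGCS1 and IDI1, enzymes of the mevalonate and isoprenoid steps, had higher levels in the overexpression arm than in the knockdown arm in each line, short of the adjusted threshold. The arm comparison sets overexpression and its control, 4 libraries, against the library labelled knockdown and its control, also 4, and so does not compare CHEK1 levels alone. HMGCS1 averaged a log2 difference of 0.56 (SE 0.14; limma unadjusted p = 0.00607, adjusted p = 0.0959) and IDI1 0.46 (SE 0.11; unadjusted p = 0.0039, adjusted p = 0.0867). SQLE differed by 0.50 (SE 0.20; limma adjusted p = 0.199), MSMO1 by 0.42 (SE 0.12; 0.121) and FDPS by -0.30 (SE 0.11; 0.181). None of the 8 genes was called by limma, against 0.107% of all genes, and these 5 had an unadjusted p under 0.05, as did 23.2% of all genes.

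Of the 8 genes, HMGCS1 and IDI1 had both overexpression arm libraries above both knockdown arm libraries in each line, 2 of 8, against 10.5% of all genes. FDPS was the single gene with all below, 1 of 8, against 10.6%. Of the 23 synthesis genes 7 had all above and 3 all below, with a median arm difference of 0.28 and 17 positive. None of the 23 was called by limma, and 14 had an unadjusted p under 0.05, 11 of them positive, where the share over all genes was 23.2%. Without the H929 library labelled knockdown, the log2 arm difference was 0.74 for SQLE, 0.69 for HMGCS1, 0.50 for MSMO1 and 0.49 for IDI1. FDFT1 had 0.46, INSIG1 0.16, SREBF2 -0.19 and FDPS -0.24 in that fit. It is the extreme of the fits with 1 library left out, the one with the most calls, and it leaves 1 group with a single library. The labels give no date or batch, so the arm and any difference in handling between the arms cannot be told apart.

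**Figure D3:**
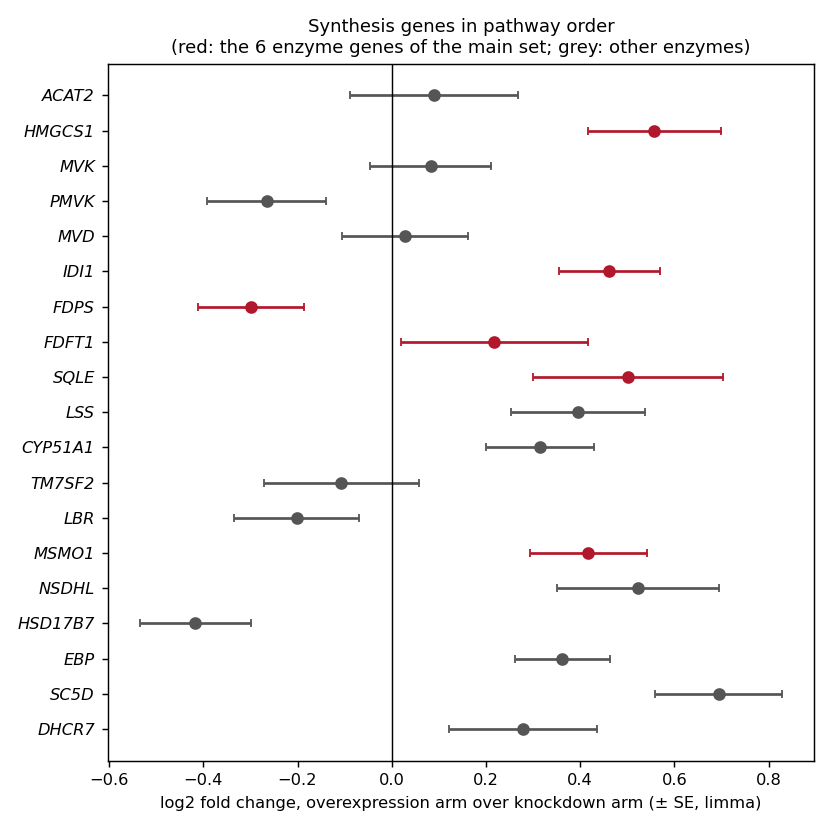
Log2 fold change of the overexpression arm over the knockdown arm (horizontal axis, limma estimate with SE, 4 libraries against 4) for the synthesis genes in pathway order from top to bottom (some are not drawn), the 6 enzymes of the main set in red and others in grey. HMGCS1 (0.56) and IDI1 (0.46) lie to the right of 0, FDPS (-0.30) to the left, and none of the genes drawn passed the adjusted threshold.

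Transcripts within a gene did not all follow its sum. FDPS-206 (1178 nt) had 48.6 FPKM with overexpression, 36.9 in its control, 74.6 in the library labelled knockdown and 62.1 in its control in ARP1, and 25.6, 24.6, 55.5 and 58.3 FPKM in H929. FDPS-203 (1256 nt) had 76.5, 76.2, 51.2 and 68.8 FPKM in ARP1 and 63.9, 82.7, 80.7 and 79.8 in H929. The lower FDPS level in the overexpression arm was thus in FDPS-206, with a log2 arm difference of -0.91 (SE 0.15; limma over transcripts, unadjusted p = 0.00078, adjusted p = 0.0815), against 0.11 (adjusted p = 0.758) for FDPS-203. In ARP1 alone, FDPS-203 went the other way, with both overexpression arm libraries above both of the knockdown arm. FDPS-206 held 21.1% to 52.9% of the FDPS sum.

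HMGCS1-201 (3506 nt) had 21.9, 18.9, 8.13 and 9.17 FPKM in ARP1 and 9.82, 13.1, 8.999 and 7.49 in H929, in the order overexpression, its control, the library labelled knockdown and its control. HMGCS1-202 (3466 nt) had 13.3, 10.1, 7.91 and 13.4 FPKM in ARP1 and 16.2, 16.6, 10.2 and 13.5 in H929. The arm difference was 0.79 (limma adjusted p = 0.164) for HMGCS1-201 and 0.30 (0.343) for HMGCS1-202. Of 36791 transcripts tested, 0.242% were called between the arms, and none of these genes' named transcripts was. SREBF2-201 carried at least 93.7% of SREBF2, IDI1-201 82.0% to 92.7% of IDI1 and MSMO1-201 76.1% to 84.8% of MSMO1. Splitting reads among transcripts that share exons is an estimate of the authors' tool, and its error is not given.

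**Figure D4:**
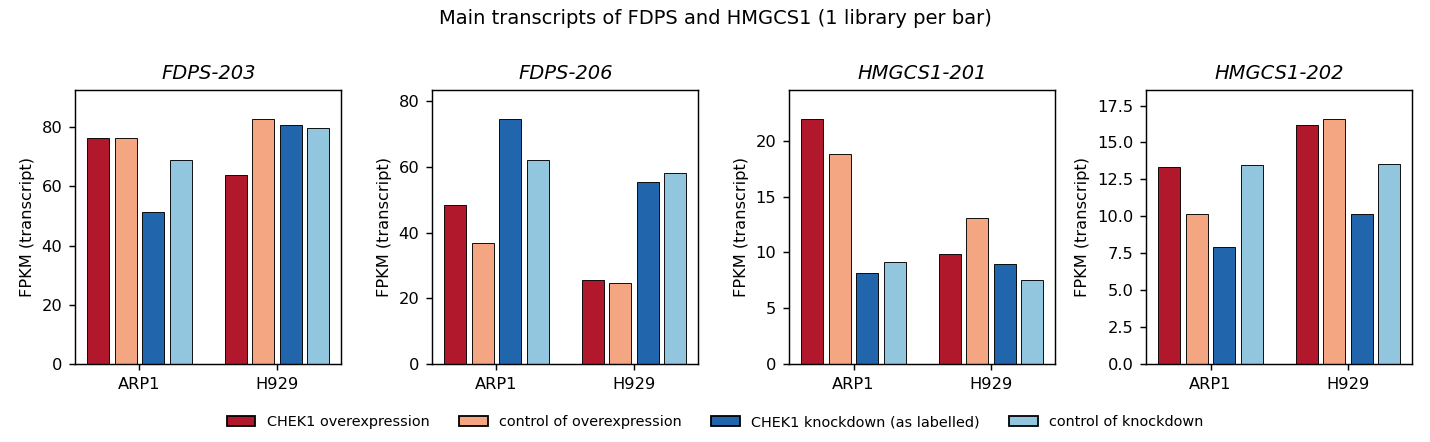
FPKM of the 2 main transcripts of FDPS and of HMGCS1 (vertical axes from 0) in the 8 libraries, 1 bar per library, coloured by genotype. FDPS-206 is at 24.6 to 48.6 in the overexpression arm and at 55.5 to 74.6 in the knockdown arm. FDPS-203 splits the other way in ARP1, at 76.5 and 76.2 against 51.2 and 68.8, and shows no split in H929.

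Between the lines SQLE differed most, with 22.4 ± 7.24 FPKM in ARP1 and 9.08 ± 2.12 FPKM in H929 (SD, n = 4 each). SREBF2 was also higher in ARP1, at 73.6 ± 9.55 FPKM against 57.5 ± 1.57 in H929. MSMO1 was lower in ARP1, at 34.9 ± 8.43 FPKM against 50.1 ± 10.2 in H929, and so was IDI1, at 26.0 ± 6.71 against 33.5 ± 5.10. The line effect was estimated over the 4 genotypes, with genotype in the fit. The log2 fold changes, ARP1 over H929, were 1.17 (SE 0.20; limma adjusted p = 0.00852) for SQLE, 0.34 (SE 0.10; 0.0461) for SREBF2, -0.52 (SE 0.12; 0.0239) for MSMO1 and -0.37 (SE 0.11; 0.0432) for IDI1. These 4 of 8 genes were called, 2 higher and 2 lower, against 27.1% of all genes, 13.7% higher and 13.4% lower. With any 1 of the 8 libraries left out, fewer of the 8 genes were called. The number called over all genes varied among those fits too, so the loss of calls is not read as particular to these genes. Of the 4 calls between the lines, SQLE alone held whichever library was left out, in 8 of 8 fits, and in each of 12 other settings. MSMO1 held in 5 of 8 and 10 of 12, IDI1 in 0 of 8 and 8 of 12, and SREBF2 in 0 of 8 and 7 of 12.

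The remaining 4 genes were not called between the lines. INSIG1 had 44.4 ± 12.8 FPKM in ARP1 and 55.0 ± 9.33 in H929, FDFT1 had 63.0 ± 20.2 and 75.9 ± 2.72, FDPS had 140.4 ± 10.5 and 128.9 ± 24.9, and HMGCS1 had 26.2 ± 8.40 and 24.3 ± 4.58 (SD, n = 4 each). For HMGCS1 the 95% interval of the log2 difference was -0.27 to 0.40. Alone among the 8, SREBF2 had all ARP1 libraries above all H929 libraries, against 13.3% of all genes, and none had all below, against 13.7%.

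The main SQLE transcript, SQLE-201, was also higher in ARP1 (log2 fold change 1.28, limma over transcripts, adjusted p = 0.0238). The share of transcripts called between the lines was 6.5%. In bulk RNA, fewer cells that make a transcript and less of it per cell cannot be told apart.

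**Figure D5:**
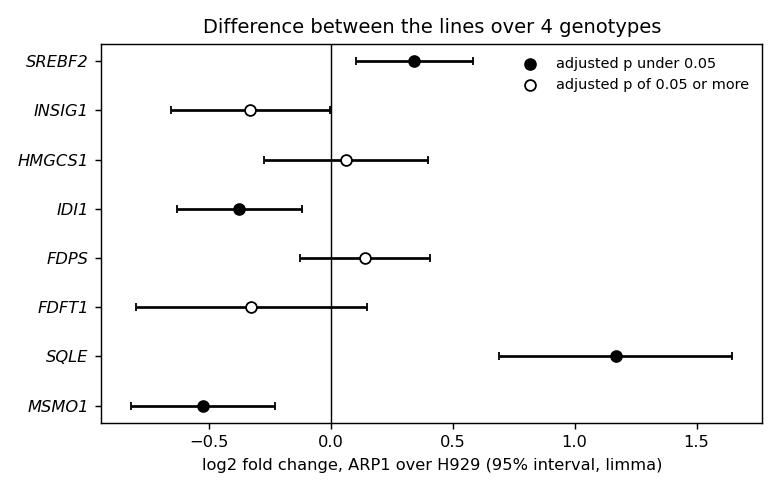
Log2 fold change of ARP1 over H929 (horizontal axis, limma estimate with 95% interval, 4 libraries against 4) for the 8 genes, filled where the adjusted p over all genes was under 0.05. SQLE lies at 1.17 and SREBF2 at 0.34 to the right of 0, MSMO1 at -0.52 and IDI1 at -0.37 to the left.

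Other sterol genes also differed between the lines, 9 of the 23 synthesis genes in all, 3 higher and 6 lower in ARP1, against 27.1% of all genes called, 13.7% higher and 13.4% lower. Beside SQLE the higher ones were PMVK and MVD, kinase and decarboxylase of the mevalonate steps, at 0.87 (limma adjusted p = 0.00508) and 0.64 (0.0159). SC5D, a late sterol desaturase, was among those lower, at -0.94 (0.00494). Among 10 tested genes of uptake and intracellular transport 1 was higher and 3 were lower in ARP1, beside the same 27.1%, and nothing particular to the list is read from that count. The log2 fold changes put LIPA, the lysosomal acid lipase, at -1.45 (0.00156), STARD4, a sterol carrier, at -0.996 (0.0023) and MYLIP, a ubiquitin ligase of lipoprotein uptake, at 0.72 (0.0132).

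Among 5 tested genes of storage and export, limma called 2 as higher and 1 as lower in ARP1, beside 27.1% of all genes. NR1H2, an oxysterol receptor gene, was higher at 0.64 (limma adjusted p = 0.00676) and SOAT1, which esterifies cholesterol, was lower at -0.60 (0.0188). ABCG1, a sterol exporter, was also called as higher, but it had 0.499 to 4.16 FPKM in ARP1 and at most 0.0637 in H929. It passed the filter on low values through ARP1 alone, so its call is not counted as support. ABCA1, the cholesterol exporter, had 4.62 FPKM with overexpression and 1.40 in its control in ARP1, and 5.03 and 0.517 in H929 (log2 fold change 1.61, limma adjusted p = 0.994). Against the control of knockdown its overexpression log2 ratio was -0.23 in ARP1 and 1.31 in H929, and in the libraries labelled knockdown it differed from their control by 1.07 (limma adjusted p = 0.538), so both CHEK1 comparisons gave a positive value. None of the 11 genes that use isoprenoids was called between the lines, beside the 27.1% of all genes. RABGGTB, a subunit of Rab geranylgeranyl transferase, had the largest difference of the 11, -0.63 (limma adjusted p = 0.0658). An unadjusted p under 0.05 was seen for 2 of them, and the share of all genes at that p is not given for this comparison. Of 7 fatty acid genes driven by SREBP1, FADS1, a desaturase, was higher in ARP1 at 0.57 (0.0186) and ELOVL6, an elongase, was lower at -0.74 (0.0259), 2 of 7 beside 27.1% of all genes, a share near the background. Of the uptake, storage, isoprenoid and fatty acid lists, limma called no gene in the CHEK1 comparisons or between the arms. With overexpression, MYLIP, ABCA1 and SCD were among those with an unadjusted p under 0.05, as were 4.45% of all genes, and ABCA1 was so in the libraries labelled knockdown too.

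To describe how the 8 genes varied together, each was centred within its line on the log2 scale. Their mean was 0.31 with overexpression, 0.01 in its control, -0.37 in the library labelled knockdown and 0.06 in its control in ARP1, and 0.02, 0.11, -0.06 and -0.07 in H929. The span of that mean was wider in ARP1 than in H929. Against the mean of the other 7, Pearson's r over the 8 libraries was 0.905 for FDFT1, 0.896 for HMGCS1, 0.834 for MSMO1, 0.784 for SQLE and 0.745 for IDI1, but 0.361 for INSIG1, -0.293 for FDPS and -0.724 for SREBF2. These describe points that share libraries and scaling. Without the ARP1 library labelled knockdown the values were 0.673, 0.726, 0.518, 0.319 and 0.603 for the first 5 genes, 0.169 for INSIG1, -0.489 for FDPS and 0.0466 for SREBF2.

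Of 8955 other protein-coding genes, those whose pattern was most like the mean of the 8 genes over the 8 libraries were DCUN1D5 (r = 0.986), GPN3 (0.984), ANKH (0.983), CEP164 (0.979) and SAPCD2 (0.979). Without the ARP1 library labelled knockdown they had 0.953, 0.948, 0.941, 0.982 and 0.938 in that order. On the same measure CHEK1 had 0.797 with all 8 libraries and 0.657 without that library. SREBF1, the gene of the fatty acid regulator, had -0.401 with all 8 and 0.149 without it, so its sign rested on that library. The spread of r over the 8955 genes is not given, so nothing particular to CHEK1 or SREBF1 is read from these values.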

How the data were processed

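Paired-end reads of polyadenylated RNA came from an Illumina NovaSeq for 8 libraries, per the labels' protocols. The authors deposited 1 table of FPKM per transcript. Bowtie 0.12.2, HISAT2 2.0, StringTie 1.3.0 and a mouse build are named per the submitters' processing notes. The transcript IDs are human, and which human build was used is not stated there. The deposited values are called means, with no number of runs. Depth in reads is unknown, and only the spread among the 8 libraries shows the precision.

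Of 88209 transcripts, 87707 were matched to GENCODE release 29 (GRCh38) by ID and 502 were set aside. FPKM was added up by gene, taken as log2 of FPKM plus 1, and kept where at least 1 in at least 2 libraries (14905 genes). limma 3.58.1 in R 4.3.3 was fitted on all 8 libraries with genotype and line as terms (3 residual and 3.74 prior degrees of freedom), with trended variances, two-sided tests and Benjamini-Hochberg adjustment over all genes at 0.05. The pairing comes from the labels, since each line holds each genotype once. The labels do not say that libraries came from separate cultures, so p-values cover the spread among these libraries, which may be technical. The fit was tested on simulated data.

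The 8 genes, the pathway and marker lists, the comparison of the arms and the rule for named genes were chosen with earlier results of these data known. The rule took CHEK1, up to 3 genes per list with the largest absolute log2 fold change in the 2 CHEK1 comparisons and between the lines, transcripts holding at least 10% of a gene's sum, and the 5 genes most alike in pattern. Of those, the genes a result turns on are named, and some are not reported here. The limma fit on single transcripts and both ways of ordering the libraries were chosen after seeing the data. Alternatives were other pseudocounts, filters and scalings, pooled or other controls, other variance settings, subsets of transcripts, a 2-fold threshold and each library left out. A fit with no line term was also used, or with no genotype term for the comparison of the lines.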

Additional observations from a re-analysis of the deposited data

Results flagged for a closer look

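In 8 of 16 results (8 genes in 2 CHEK1 comparisons) a gene's log2 ratio to its control had opposite signs in ARP1 and H929. With 1 library per group in each line, the difference was not tested. The share of all genes with opposite signs is not given, so nothing particular to these genes is read from the count. Some H929 ratios were near 0, such as -0.046 for IDI1 with overexpression and 0.045 for FDFT1 in the library labelled knockdown. The differences below are the ARP1 ratio minus the H929 ratio. For overexpression the difference was 0.60 for FDFT1, 0.50 for HMGCS1, 0.44 for MSMO1, 0.37 for FDPS and 0.32 for IDI1, each with a ratio above 0 in ARP1 and below 0 in H929. For the libraries labelled knockdown it was -1.08 for SQLE, -0.89 for FDFT1 and -0.69 for INSIG1, each lower than the control in ARP1 and higher in H929. CHEK1 itself was lower than the control in the ARP1 library labelled knockdown and not in the H929 one, and its part in these differences was not tested. Dixon's criterion flagged no library against the other 3 of its line for any of the 8 genes, in 16 groups of 4. With 4 values a gap must exceed 0.829 of the range to be flagged, so a library that stands apart can be missed.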

How the results depend on the processing

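Of 1016 recomputed values of 48 fold changes, 935 kept their direction and their side of the threshold, 46 in 20 results turned direction, 30 lost a call and 5 gained one. Between the lines, 4 of the 8 genes were called, against 1 with no filter, 1 with no genotype term and 2 with no trend. Weighting by transcript length gave 5, which added INSIG1 (-0.40, limma adjusted p = 0.0268). Over all genes 4035 were called in the main fit and 3031 to 4640 in the 12 other settings, so the background moved too. Fewer of the 8 were called with a library left out. Between the arms 0 were called, and 0 in each of 12 other settings, where 0 to 323 of all genes were. With a library left out the calls between the arms varied, over all genes as well, so nothing particular to these genes is read from them. The causes were not tested. Past 2-fold the count in ARP1 was 0 for overexpression and 0 for the library labelled knockdown, against 1 and 3 past 1.5-fold. Past 1.5-fold the count in H929 was 0 in both comparisons, against 1 for overexpression with weighting by transcript length or the other control, and 1 for the library labelled knockdown with the other control.

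For overexpression the direction turned with the other control for SREBF2 (-0.012), SQLE (0.21) and MSMO1 (0.15), and with pooled controls for MSMO1 (0.044). In the knockdown comparison it turned for INSIG1 with quantile scaling (0.0029), length weighting (0.021), the other control (0.28) and pooled controls (0.12), and for FDPS with the other control (0.23) and pooled controls (0.068). The difference of both effects turned for FDPS with quantile scaling (-0.049), and the line difference for HMGCS1 with TPM-like scaling (-0.00965).

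With 1 library left out, the overexpression values ran from -0.030 to 0.20 for SREBF2, -0.21 to 0.31 for HMGCS1, -0.066 to 0.30 for IDI1, -0.27 to 0.19 for FDPS, -0.17 to 0.61 for FDFT1, -0.55 to 0.016 for SQLE and -0.21 to 0.095 for MSMO1. The knockdown values ran from -0.0028 to 0.28 for SREBF2, -0.29 to 0.19 for INSIG1, -0.22 to 0.029 for FDPS, -0.88 to 0.083 for FDFT1 and -0.81 to 0.16 for SQLE. The difference of both effects ran from -0.19 to 0.087 for SREBF2, -0.18 to 0.29 for FDPS and -0.43 to 0.55 for SQLE. Between the controls SREBF2 ran from -0.21 to 0.018 and FDFT1 from -0.20 to 0.019, between the arms INSIG1 from -0.080 to 0.16 and FDFT1 from -0.022 to 0.46, and between the lines HMGCS1 from -0.067 to 0.19. Leaving out a library leaves 1 group with a single sample, assumed to vary like the others. Depth limits cannot be given without read counts.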
